A study of Mus musculus with 32 samples.

Results

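A set of 10 genes that cut, protect or crosslink the extracellular matrix was followed in denervated gastrocnemius (GAS) muscle, taken by symbol from the 33397 genes of the deposited table. The 10 members were 4 matrix metalloproteinases (Mmp2, Mmp9, Mmp14 and Mmp19), 3 tissue inhibitors of metalloproteinases (Timp1, Timp2 and Timp3) and 3 lysyl oxidases (Lox, Loxl1 and Loxl2). All 10 passed the filter on low values, and each was above an FPKM of 0.1 in all 32 samples.

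RNA was sequenced from GAS muscle of C57BL/6 mice at 8 time points, Days 0, 1, 3, 5, 7, 14, 21 and 28, with 4 samples at each. The treatment label of every group, Day 0 included, names sciatic nerve transection, which cuts the motor supply of the calf. The study's methods describe male C57BL/6J mice aged 6 to 8 weeks in which a piece of the left sciatic nerve was removed, and the study compares denervated muscle with a sham group. The Day 0 samples were used here as the control, and the labels name no further allele or agent for any group. Each sample is whole muscle, so fewer cells of a type and less RNA per cell cannot be told apart in any value below.

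Metalloproteinases are zinc enzymes that cleave collagens and other matrix proteins, and most are secreted as inactive precursors that need a cleavage to become active. Mmp14 is anchored in the cell membrane and activates the Mmp2 precursor, a step in which Timp2 acts as an adaptor. TIMPs bind active metalloproteinases and block them, while lysyl oxidases are copper enzymes that oxidise lysines in collagen and elastin so that the fibres become crosslinked.

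The catalytic site that makes the 4 proteases members of 1 family could be read in the transcripts of GENCODE release M21 (GRCm38). The 33 coding bases that hold the zinc-binding motif are shown for each, with the codons of the 3 zinc-binding histidines in capitals. They lie within a single coding exon of each gene, at chr8:92839279-92839311 in exon 8 of Mmp2, chr2:164951133-164951165 in exon 8 of Mmp9, chr14:54437627-54437659 in exon 5 of Mmp14 and chr10:128795673-128795705 in exon 5 of Mmp19, all on the plus strand.
Mmp2: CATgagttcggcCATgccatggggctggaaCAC
Mmp9: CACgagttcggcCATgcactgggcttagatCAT
Mmp14: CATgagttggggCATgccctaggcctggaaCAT
Mmp19: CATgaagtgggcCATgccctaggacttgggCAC
Mmp2 and Mmp14 were the closest pair in this stretch, with 27 of 33 bases in common, and Mmp9 and Mmp19 the most distant, with 21 of 33. The histidine codons were written with either CAT or CAC, and the bases between them differed enough to tell the 4 genes apart.

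Promoter windows of RefSeq (GRCm38.p6) were given for 4 of the 10 members, Mmp14, Timp1, Timp2 and Timp3. They are shown for Mmp14 and Timp1, which were called higher after denervation, and for Timp3, which was not, so that the start regions can be set beside the values. Each window begins 250 bases before the start site, and bases that GENCODE places in an exon were left out. The stretches are chr14:54431348-54431597 for Mmp14, chrX:20869916-20870165 for Timp1 and chr10:86300162-86300371 for Timp3, all on the plus strand, with motif matches in capitals.
Mmp14: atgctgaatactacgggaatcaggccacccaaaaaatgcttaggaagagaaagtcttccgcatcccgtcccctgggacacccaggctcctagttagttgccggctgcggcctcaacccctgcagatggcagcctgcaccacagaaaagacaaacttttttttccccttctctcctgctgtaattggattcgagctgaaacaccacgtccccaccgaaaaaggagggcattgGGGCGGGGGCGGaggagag
Timp1: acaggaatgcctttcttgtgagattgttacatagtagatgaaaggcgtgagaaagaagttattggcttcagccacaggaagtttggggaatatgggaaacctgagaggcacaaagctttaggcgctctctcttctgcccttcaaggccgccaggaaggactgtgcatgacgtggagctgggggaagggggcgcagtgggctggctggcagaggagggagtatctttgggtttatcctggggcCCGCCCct
Timp3: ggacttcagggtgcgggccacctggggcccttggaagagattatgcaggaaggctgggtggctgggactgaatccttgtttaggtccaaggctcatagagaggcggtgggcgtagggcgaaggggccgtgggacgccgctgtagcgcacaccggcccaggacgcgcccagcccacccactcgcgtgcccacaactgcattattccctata
A total of 4 motifs was searched on both strands in the 250 bases before the start. The GC box GGGCGG occurs in 32.7% of the 32851 windows and was present in all 4 members, 2 times side by side in Mmp14 and 1 time each in Timp1, on the minus strand, in Timp2 and, past the stretch shown, in Timp3. The AP-1 site TGACTCA (4.46% of windows) and the TATA box TATAAA (12.4%) matched none of the 4, and the E-box form CAGCTG (13%) matched Timp2 1 time. Other forms of the E-box were not searched. A match is a run of letters and not a bound site. The GC content of the 250 bases before the start was 54.4% in Timp1, 55.2% in Mmp14, 65.6% in Timp3 and 68.0% in Timp2, beside a median of 52.4% over all windows.

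FPKM values are fragments counted per transcript length and sequencing depth, so levels of different genes can be compared per length. At Day 0 the order of the mean FPKM was Timp2 (76.7), Mmp2 (32.5), Timp3 (21.5), Loxl1 (10.5), Lox (6.02), Loxl2 (4.92), Mmp14 (4.82), Mmp9 (1.75), Timp1 (1.19) and Mmp19 (1.18). The sample ranges of Lox and Loxl2, of Loxl2 and Mmp14, of Mmp9 and Timp1, and of Timp1 and Mmp19 overlapped, and the other neighbours were separate. Timp2 and Mmp2 thus led the inhibitors and the proteases at Day 0, and Timp1 was near the bottom.

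Depth was even, at 14199902 to 17561584 fragments per sample recovered from the values. Skeletal muscle fibre markers (8 of 8 present) summed to between 24858 and 49115 FPKM in every sample, while 7 retina markers together reached at most 0.528 FPKM, which matters because the extraction text in the labels speaks of retinas. The share of mitochondrial transcripts was 14.5 to 18.2% at Day 0 and 6.69 to 11.3% at Day 7, and the median of the 11943 genes whose FPKM averaged 1 or more stood 0.12 (Day 1) to 0.32 (Day 14) above Day 0 on the log2 scale. Of all genes called against Day 0, 68.7 to 79.5% were higher as deposited and 44.8 to 49.6% after median-ratio scaling, which sets each sample by its median gene, so the members' changes are to be read against that shift. Sample 1 of Day 3 stood apart from the other 3 of its day (-19.4 on the first principal component, against 0.75 to 6.25), and the members' changes from Day 0 to Day 3 are also given without it. Counts for other gene lists include it. Samples are numbered within a day in the order of their column names. The study calls its samples biologically independent, while the labels name no individual animal.

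**Figure D1:**
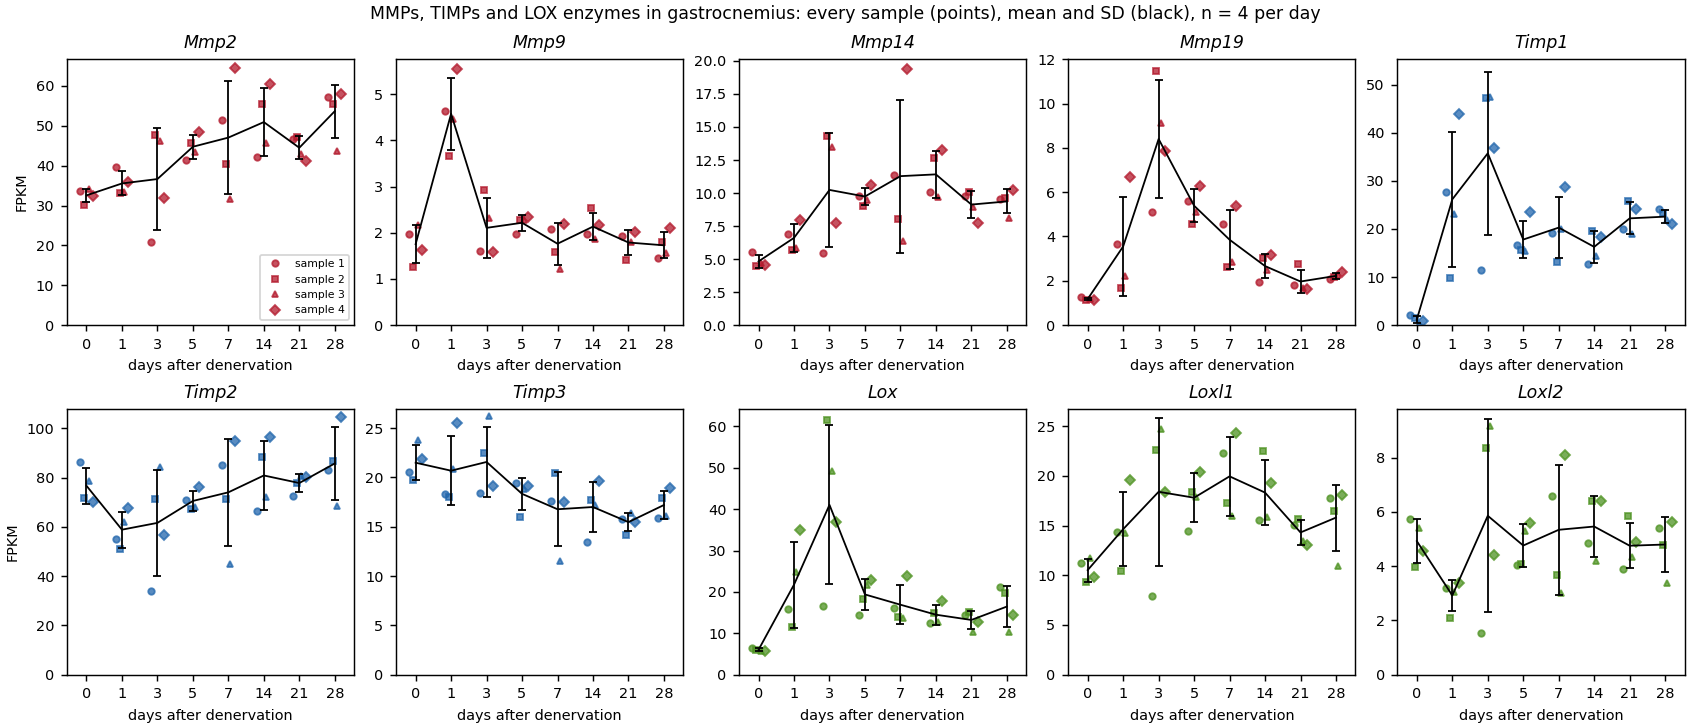
FPKM of each of the 10 members (vertical axes, linear from 0, each gene with its own scale) against days after denervation, with 1 symbol per sample and the mean and SD in black. Timp1, Lox and Mmp19 are low at Day 0 and have their highest means at Day 3, Mmp9 peaks at Day 1, and the 4 samples of Days 3 and 7 spread widely for most genes.

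Each day was compared with Day 0 by limma on log2(FPKM + 1) in 1 fit of all 32 samples, and a gene was called where p, adjusted by Benjamini-Hochberg over all genes, was under 0.05 and the change reached 1.5-fold. The members called were 4 of 10 at Day 1, where 8.84% of all 22071 genes tested were called, 5 at Day 3 (background 19.3%), 5 at Day 5 (18.8%), 5 at Day 7 (19.5%), 6 at Day 14 (18.5%), 3 at Day 21 (15.7%) and 4 at Day 28 (18.3%). Every called member was higher than at Day 0. The median change of the 10 members lay between 0.40 and 0.68 on the log2(FPKM + 1) scale, beside 0.03 to 0.15 over all genes tested. Over the 11943 genes whose FPKM averaged 1 or more it was 0.12 to 0.32. Timp1 and Lox were called on all 7 days, Mmp14 on 6, Mmp19 on 5, Loxl1 on 4, Mmp2 on 2 and Mmp9 on 1. Timp2, Timp3 and Loxl2 were called on none. Samples that do not overlap with Day 0 were common: of all genes tested, the 4 samples lay wholly above or wholly below the 4 of Day 0 for 28.5% at Day 1, 35.3% at Day 3, 44.8% at Day 5, 40.9% at Day 7, 44.9% at Day 14, 42.9% at Day 21 and 45.7% at Day 28, and each lack of overlap given for a member is to be read beside these shares.

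**Figure D2:**
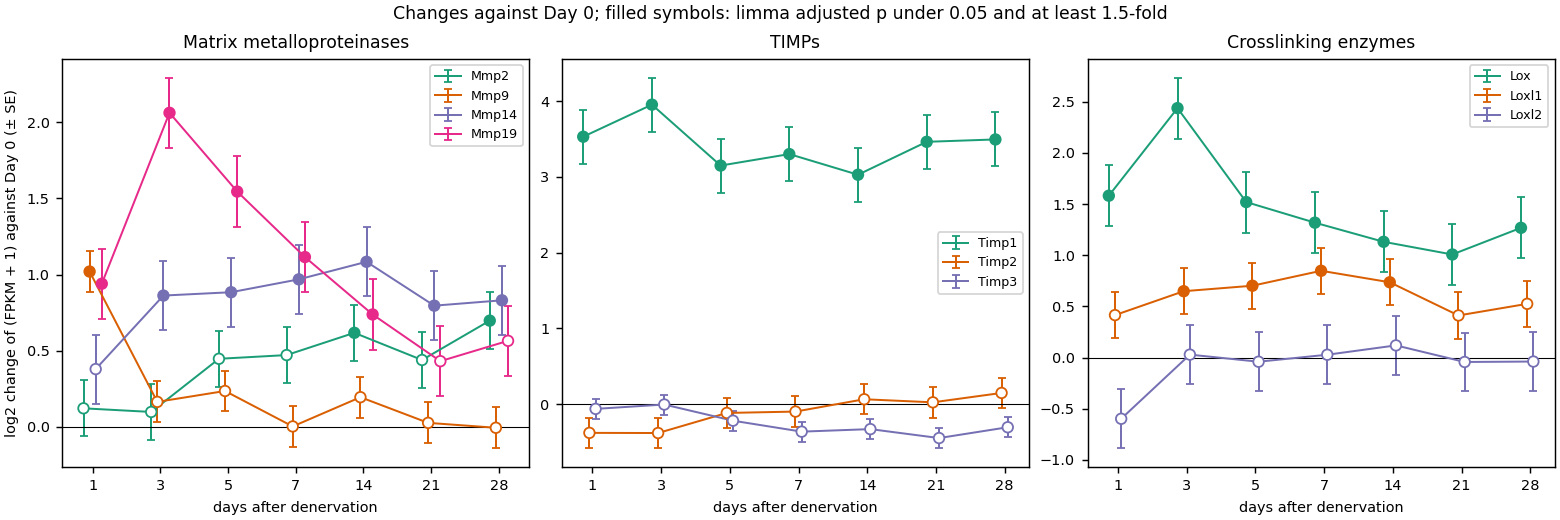
Change of log2(FPKM + 1) against Day 0 with its standard error (vertical axis) at each day (horizontal axis), for proteases, TIMPs and lysyl oxidases, where filled symbols passed both thresholds. Timp1 lies between 3.03 and 3.96 throughout, whereas Timp2 and Timp3 lie within 0.45 of 0.

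Mmp9, the gelatinase that neutrophils carry in their granules, rose at Day 1 and was called at no other time point. Its Day 0 samples held 1.98, 1.25, 2.17 and 1.62 FPKM, and the Day 1 samples 4.64, 3.65, 4.47 and 5.54. All 4 samples of Day 1 lay above all 4 of Day 0, as for 19.9% of all genes, a rise of 1.02 ± 0.13 (SE) on the log2(FPKM + 1) scale (limma adjusted p = 6.44e-07). By Day 3 the samples were back at 1.60, 2.92, 2.33 and 1.57 FPKM and overlapped Day 0. The fall from Day 1 to Day 3 was called at -0.86 ± 0.13 (limma adjusted p = 8.69e-06), and from Day 3 to Day 28 the change against Day 0 stayed between -0.01 and 0.23 with no call, the Day 3 value of 0.16 being 0.24 without sample 1 of that day.

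Neutrophil markers moved on the same day. All 5 of the 8 listed markers that could be tested were called higher at Day 1, beside 8.84% of all genes called in either direction. The sum of the 8 markers rose from a range of 1.30 to 2.30 FPKM to 51.7, 9.04, 29.5 and 97.1 FPKM in samples 1 to 4. The order of these 4 samples was that of Mmp9, but also that of Mmp14, Mmp19, Timp1, Loxl1 and Loxl2. Mmp9 had the order of the neutrophil sum at Day 1 only and that of the macrophage marker sum at Days 1, 5 and 7. Of the defining granule and surface genes, Ly6g, Ngp and Camp were at 0 in every Day 0 sample and reached at most 8, 1 and 0 fragments at Day 1. Csf3r, the receptor for granulocyte colony-stimulating factor, and Cxcr2, a chemokine receptor of neutrophils, had means of 3.69 and 1.87 FPKM at Day 1 against 0.32 and 0.03 at Day 0. From Day 1 to Day 3, when Mmp9 fell, S100a9 (-1.97), Csf3r (-0.83) and Cxcr2 (-1.04) were called lower too, Retnlg (0.23) was not called and S100a8 (1.27) was called higher. The marker sum of 17.6 to 56.1 FPKM from Day 3 to Day 28 was carried mainly by S100a8, a calcium-binding protein of myeloid cells, whose means were 16.8 to 31.7 FPKM. The part of neutrophil number in the Mmp9 result was not tested.

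**Figure D3:**
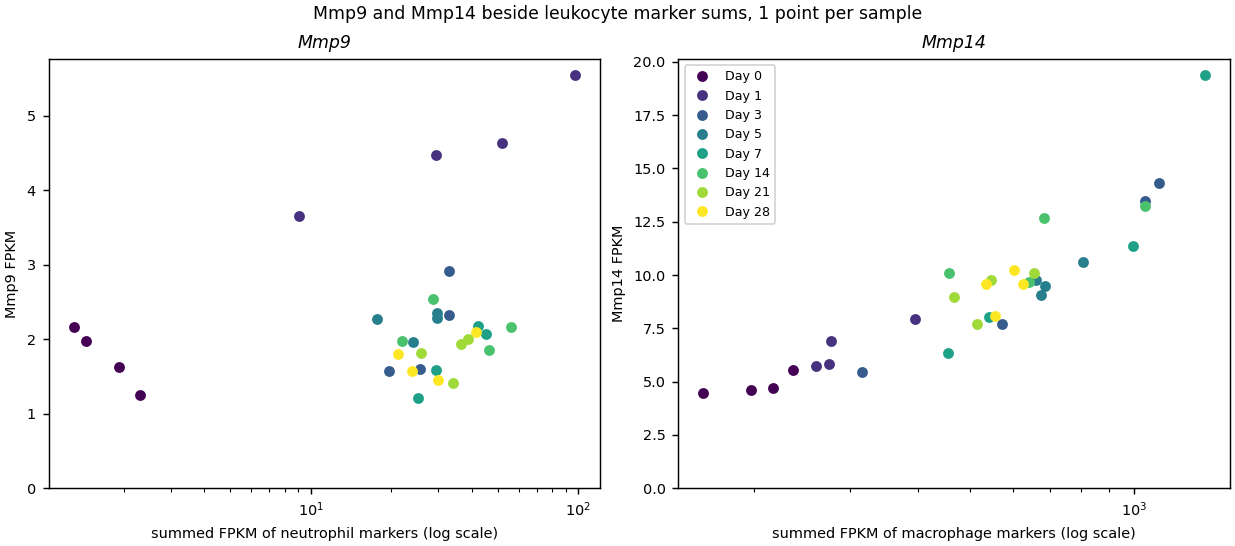
Mmp9 against the summed FPKM of neutrophil markers (left) and Mmp14 against that of macrophage markers (right), 1 point per sample coloured by day, with horizontal axes on a log scale. The 4 Day 1 samples stand above all others for Mmp9, while Mmp14 climbs along its marker sum, with both ends held by Day 0 and by sample 4 of Day 7.

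Mmp19, a secreted protease outside the collagenase and gelatinase groups, made the largest relative rise among the 4 proteases. Its level was tight at Day 0, at 1.25, 1.16, 1.17 and 1.14 FPKM, and reached 3.65, 1.66, 2.21 and 6.69 FPKM at Day 1. At Day 3 it stood at 5.12, 11.5, 9.13 and 7.87 FPKM, so that even sample 1, the lowest, was above every Day 0 and 3 of the 4 Day 1 samples. The rise against Day 0 was 0.94 ± 0.23 at Day 1, 2.06 ± 0.23 at Day 3 and 1.55 ± 0.23 at Day 5 on the log2 scale (limma adjusted p = 0.00213, 1.53e-08 and 2.36e-06), and 2.25 at Day 3 without sample 1. It then shrank to 1.11 at Day 7 and 0.74 at Day 14, both called, and to 0.43 and 0.56 at Days 21 and 28, which were not. The mean FPKM of 1.97 at Day 21 was 1.67 times the Day 0 mean. All 4 samples of Days 21 and 28 lay above all 4 of Day 0, as for 32.9% and 36.6% of all genes. The Day 14 call was lost under median-ratio scaling and quantile normalization, at 0.49 in both, and the Day 1 call when only the 8 samples of Days 0 and 1 were fitted (limma adjusted p = 0.0649). TPM added calls at Days 21 (0.68) and 28 (0.88), and so did pseudocounts of 0.1 (0.86) and 0.01 (0.91) at Day 28.

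Mmp14, the membrane-type collagenase, was called higher on each day from Day 3 to Day 28. It held 5.53, 4.49, 4.69 and 4.59 FPKM at Day 0. At Day 1 it held 6.91, 5.72, 5.84 and 7.95 FPKM, all above Day 0, and the change of 0.38 ± 0.23 was not called (limma adjusted p = 0.243). At Day 3 it was at 5.44, 14.3, 13.5 and 7.70 FPKM, where only sample 1 fell within the Day 0 range. The rise at Day 3 was 0.86 ± 0.23 (limma adjusted p = 0.00245) and 1.1 without that sample. At Day 14 the samples were at 10.1, 12.7, 9.67 and 13.2 FPKM, all more than 1.5 times the highest Day 0 value, and the rise was 1.08 ± 0.23 (limma adjusted p = 0.000225). At Day 28 it was 0.83 ± 0.23 with values from 8.08 to 10.2 FPKM. Day 7 was the least even, at 11.3, 8.03, 6.35 and 19.4 FPKM, and its rise of 0.97 became 0.69 without sample 4 and 1.18 without sample 3, called in both. Under median-ratio scaling Mmp14 kept its call at Days 3, 7 and 14 and lost it at Days 5, 21 and 28, where the changes were 0.55, 0.54 and 0.50.

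Macrophage markers were higher on the days when Mmp14 was called. All 8 were called higher on each day from Day 3 to Day 28, and their sum went from a range of 161 to 236 FPKM at Day 0 to 317, 1113, 1049 and 573 FPKM in samples 1 to 4 of Day 3 and 995, 542, 455 and 1350 FPKM in those of Day 7. On both days Mmp14 had the same order of samples as the sum, as it had at Days 0 and 1, and Lox had it on 5 of the 8 days. Other members had it too, Loxl2 on 4 days and Mmp2, Mmp9 and Mmp19 on 3 each. The order of the fibroblast and fibro-adipogenic progenitor sum was that of Lox on 4 of 8 days, that of Mmp14 on 2 and that of Loxl2 on 5. Fibroblast and fibro-adipogenic progenitor markers summed to 807 to 929 FPKM at Day 0 and 510 to 740 FPKM at Day 3, with 1 of 8 called higher and 2 lower at Day 3 and 3 of 8 higher on each day from Day 5, beside 19.3% of all genes called at Day 3 and 15.7 to 19.5% from Day 5 on. The part of macrophage or fibroblast number in the Mmp14 and Lox results was not tested.

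Mmp2, the main gelatinase of resting muscle, rose at Days 14 and 28. Its samples were at 33.5, 30.2, 34 and 32.4 FPKM at Day 0, and at 57.3, 55.6, 43.8 and 58.0 FPKM at Day 28, with no overlap. The rise was 0.62 ± 0.19 at Day 14 and 0.70 ± 0.19 at Day 28 (limma adjusted p = 0.00698 and 0.00252), against 0.12 at Day 1 and 0.10 at Day 3, the last being 0.33 without sample 1 of Day 3, and not called in either case. At Days 5, 7 and 21 it lay at 0.44 to 0.47 without a call, and the Day 7 rise became a call, at 0.64, without sample 3 of that day and was 0.31 without sample 4. Under median-ratio scaling the changes of Days 1 and 3 were negative, at -0.06 and -0.13. Both calls depended on the scaling: median-ratio scaling gave 0.23 at Day 14 and 0.32 at Day 28, and quantile normalization 0.36 and 0.49, with no call in either, and the Day 14 call was lost without mitochondrial genes in the total (0.47), whereas TPM kept both (0.83 and 0.88) and added calls at Days 5 (0.64), 7 (0.67) and 21 (0.59). The Day 14 call was also lost without sample 2 of Day 0, at 0.58, and without sample 2 or sample 4 of Day 14, at 0.57 and 0.53. The 4 proteases together went from 37.1 to 42.3 FPKM at Day 0 to 55.7 to 72.7 FPKM at Day 28, and Mmp2 made up a median of 81.2% and 80.1% of that sum, with a low of 64.1% at Day 3 when Mmp14 and Mmp19 held 17.6% and 15.2%.

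Timp1, the inducible inhibitor, had the largest change of the 10 members on every day. It was at 2.12, 1.43, 0.30 and 0.92 FPKM at Day 0, the third of these resting on 4 fragments, and at 27.7, 9.88, 23.1 and 43.9 FPKM at Day 1. At Day 3 the samples held 11.4, 47.2, 47.5 and 36.8 FPKM, and at Day 28 they were nearly level at 24.1, 23.3, 21.8 and 21. No sample of any denervated day came within 4 times the highest Day 0 value. The changes on the log2(FPKM + 1) scale were 3.53 ± 0.36 at Day 1, 3.96 ± 0.36 at Day 3 and between 3.03 and 3.50 from Day 5 to Day 28 (limma adjusted p = 6.58e-09 at Day 1 and 2.27e-10 at Day 3), the Day 3 change was 4.42 without sample 1, and the means were 13.6 to 29.9 times the Day 0 mean. With 4 against 4 samples no comparison can give an exact two-sided permutation p below 0.0286, which is what Timp1, Lox and Mmp19 had on all 7 days, and what each of the genes without overlap counted above has.

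The course of Timp1 after Day 3 depended on 1 sample and on the scaling. With all samples, neither the fall from Day 3 to Day 5 (-0.80 ± 0.36, limma adjusted p = 0.109) nor the difference between Day 28 and Day 3 (-0.46 ± 0.36, limma adjusted p = 0.352) was called. Without sample 1 of Day 3 the 2 differences were -1.27 and -0.92 and both were called (limma adjusted p = 0.00379 and 0.0227). With all samples, median-ratio scaling called the fall to Day 5 as well, at -0.95 (limma adjusted p = 0.0354).

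Timp2, the constitutive inhibitor, held the top level throughout, with means between 58.9 and 85.7 FPKM. Its Day 0 samples were at 86.1, 71.9, 78.7 and 70.03 FPKM and its Day 1 samples at 55.2, 50.8, 61.9 and 67.6, so that all 4 of Day 1 were below all 4 of Day 0. The difference of -0.38 ± 0.20 was not called (limma adjusted p = 0.173), and 8.60% of all genes lay wholly below Day 0 at Day 1. At Day 3 sample 1 was at 34 FPKM and the others at 71.3, 84.4 and 56.8, and the difference was again -0.38, or -0.13 without sample 1. Median-ratio scaling and quantile normalization made the Day 3 difference a call, at -0.61 and -0.62, and turned the small positive values of Days 14 to 28 negative, while TPM turned the negative ones of Days 5 and 7 positive.

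Timp3, which binds to the matrix and inhibits proteases of the ADAM families as well, sat at 20.6, 19.7, 23.8 and 21.9 FPKM at Day 0 and at 15.8, 14.2, 16.3 and 15.5 FPKM at Day 21. All 4 samples of Days 5, 14, 21 and 28 were below all 4 of Day 0, as for 8.13 to 9.99% of all genes on those days. The differences were -0.36 ± 0.13 at Day 7, -0.33 ± 0.13 at Day 14 and -0.45 ± 0.13 at Day 21 (limma adjusted p = 0.0249, 0.0415 and 0.007), less than 1.5-fold. The Day 7 difference was -0.21 without sample 3 of that day and -0.39 without sample 4 (limma adjusted p = 0.168 and 0.0306). At Day 3 the change was -0.01, or 0.06 without sample 1, not called in either case. Whether Timp3 was called later turned on the scaling. Median-ratio scaling gave -0.59 at Day 5, -0.73 at Day 7, -0.71 at Day 14, -0.74 at Day 21 and -0.67 at Day 28, all called lower, and quantile normalization called 4 of these 5, all but Day 5. TPM gave values from -0.32 to 0.16 with no call and turned the sign at Days 1 and 3. Of its merged exon length, 21.3% is shared with exons of Syn3 on the opposite strand, but Syn3 itself had at most 0.0861 FPKM in any sample.

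**Figure D4:**
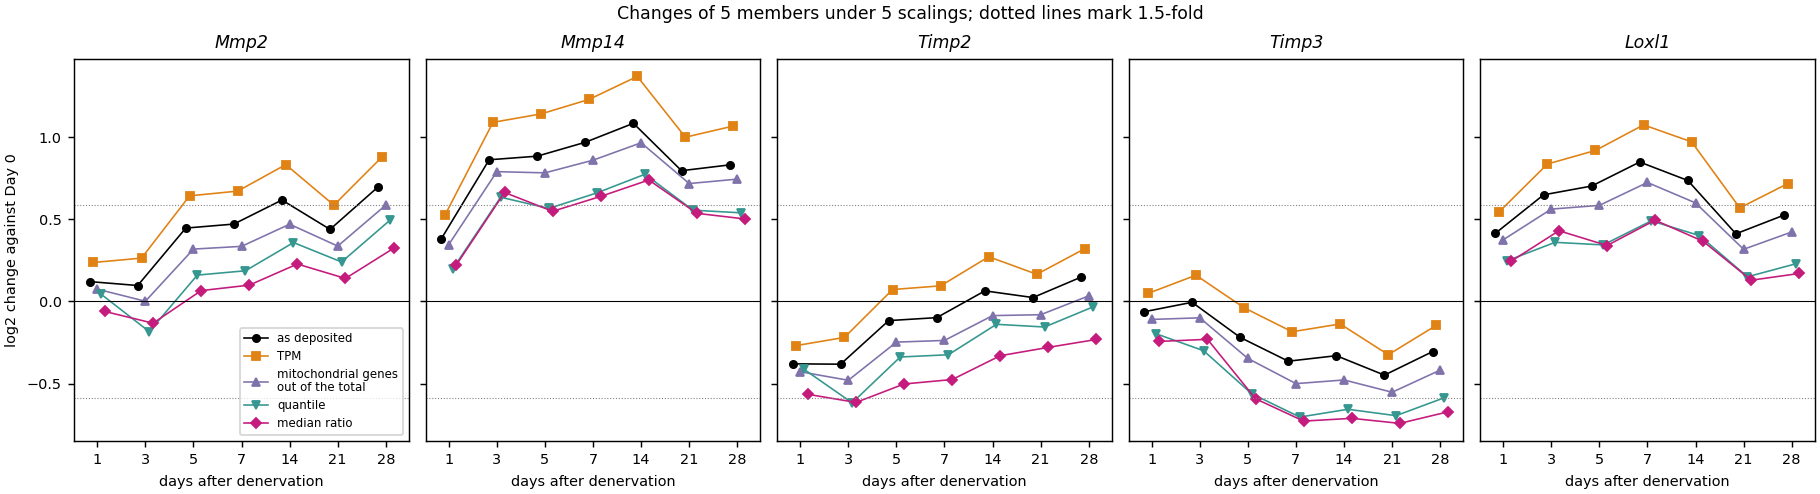
Change against Day 0 on the log2 scale (vertical axes) of Mmp2, Mmp14, Timp2, Timp3 and Loxl1 at each day (horizontal axes) under 5 scalings, with dotted lines at 1.5-fold. TPM lies highest and median-ratio scaling or quantile normalization lowest, so Timp3 passes below the lower line only under the last pair.

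The make-up of the inhibitor pool changed, and as the 3 shares are parts of 1 sum, a rise of 1 share must lower the rest. Summed over the 3 TIMPs, RNA stood at 92.8 to 108.8 FPKM at Day 0, at 63.7 to 158 FPKM at Day 3 and at 106 to 144 FPKM at Day 28. Timp1 made up 0.29 to 1.95% of it at Day 0, a median of 24.6% at Day 1 and 31.3% at Day 3, and a median of 13.8 to 19.3% at the later days. Timp2 went from a median of 76.9% to 51.9% at Day 3 and to 67.7% at Day 28, and Timp3 from 22.2% to 16.8% and 13.5%. The mean FPKM of Timp3 was 21.5 at Day 0 and 21.6 at Day 3. Its share at Day 3 was 28.8% in sample 1 and 15.9 to 17.0% in the others, beside 18.9 to 23.6% at Day 0. A factor applied to a whole sample leaves such shares as they are. The ratio of summed TIMP to summed MMP RNA was 2.34 to 2.57 at Day 0 and lay below that range in every sample of Days 3, 5, 7, 14, 21 and 28, the highest being 2.30 at Day 3, so that RNA of the 4 proteases gained on that of the 3 inhibitors even with Timp1 included. At Day 1 the ratio was 1.79 to 2.44, overlapping Day 0. RNA ratios say nothing of the activity of the proteins.

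**Figure D5:**
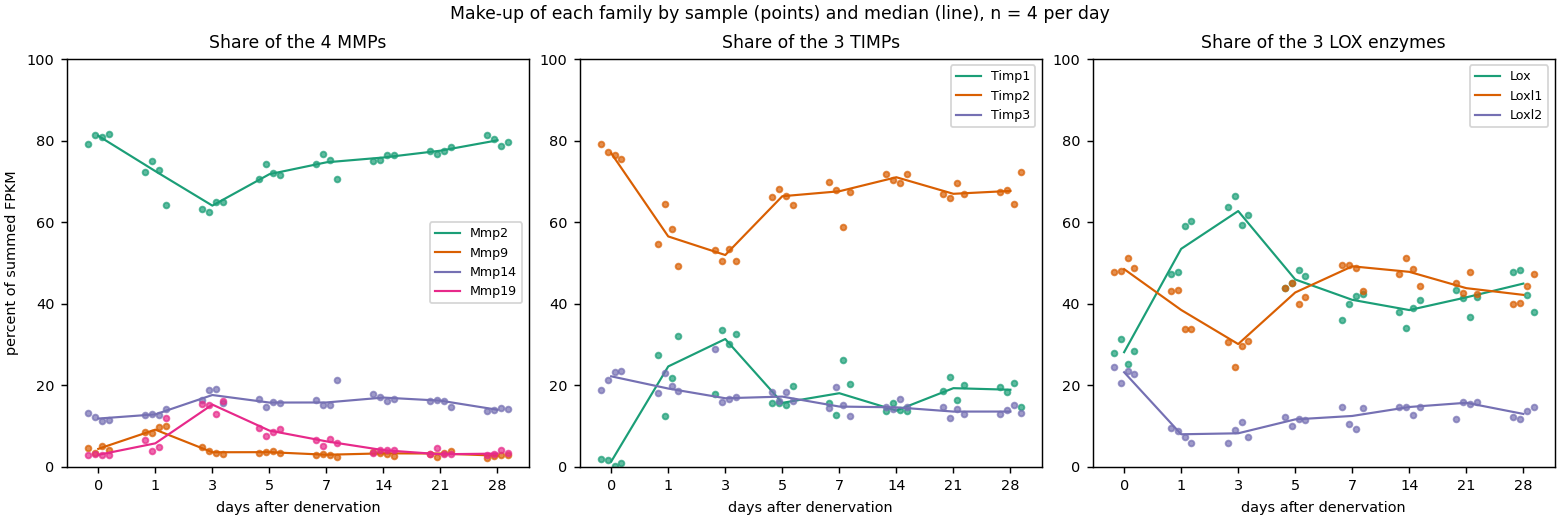
Percentage of the summed FPKM of each family (vertical axes, 0 to 100) that each member made up by day (horizontal axes), with points for samples and lines for medians. Timp1 goes from about 1.27% of TIMP RNA to 31.3% at Day 3, and Lox from 28.1% of lysyl oxidase RNA to 62.7%.

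Lox, the founding lysyl oxidase, rose on all 7 days and peaked at Day 3. It was at 6.56, 6.06, 5.79 and 5.68 FPKM at Day 0, at 15.8, 11.5, 24.9 and 34.8 FPKM at Day 1 and at 16.5, 61.5, 49.2 and 36.9 FPKM at Day 3. Every denervated sample of every day lay above the Day 0 range, as for 19.9 to 36.8% of all genes on each day, and the Day 28 samples, at 21.2, 19.8, 10.4 and 14.5 FPKM, were clear of it too. The rise was 1.58 ± 0.30 at Day 1, 2.44 ± 0.30 at Day 3 and 1.27 ± 0.30 at Day 28 (limma adjusted p = 0.000115, 7.42e-08 and 0.000795). Without sample 1 of Day 3 the Day 3 rise was 2.81. Lox kept its call on all 7 days under each of the 4 other scalings.

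Lox also turned within the course. The change was 0.86 ± 0.30 from Day 1 to Day 3 and -0.92 ± 0.30 from Day 3 to Day 5 on the log2 scale (limma adjusted p = 0.0284 and 0.0239). The rise was no longer called without sample 1 or sample 2 of Day 1 or without sample 2, 3 or 4 of Day 3, with changes from 0.61 to 0.86, and the fall was no longer called without sample 2 or 3 of Day 3 or sample 1 of Day 5, at -0.68, -0.78 and -0.79. With only the 8 samples of each pair of days neither was called (limma adjusted p = 0.263 and 0.154), and quantile normalization lost the rise, at 0.66. Without sample 1 of Day 3 both were larger, at 1.23 and -1.29.

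Loxl1, which is tied to elastic fibres, rose moderately and for part of the course. The Day 0 samples were at 11.3, 9.31, 11.7 and 9.78 FPKM and the Day 7 samples at 22.3, 17.2, 15.9 and 24.3, with no overlap. The rise was 0.65, 0.70, 0.85 and 0.74 (each ± 0.23) at Days 3, 5, 7 and 14 (limma adjusted p = 0.0204, 0.0117, 0.0026 and 0.00827). At Day 3 sample 1 held 7.92 FPKM, less than any Day 0 sample, beside 22.6, 24.7 and 18.4 FPKM in the others, and without it the rise was 0.99. At Day 28 the change of 0.53 became a call, at 0.68, without sample 3 of that day. All 4 calls were lost under median-ratio scaling and under quantile normalization, where the largest change was 0.49, and the Day 3 call was also lost without sample 2 of Day 0 or without sample 2 or 3 of Day 3, at 0.60, 0.52 and 0.48, and when only the 8 samples of Days 0 and 3 were fitted (limma adjusted p = 0.166). Without mitochondrial genes in the total the calls of Days 3 and 5 were lost, at 0.56 and 0.58, and TPM added one at Day 28, at 0.72.

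Loxl2, which crosslinks the collagen of basement membranes, had the lowest mean of the 3 lysyl oxidases on every day. Its samples went from 5.75, 3.98, 5.39 and 4.57 FPKM at Day 0 to 3.18, 2.08, 3.05 and 3.37 FPKM at Day 1, all below the Day 0 range, a change of -0.60 ± 0.29 that was not called (limma adjusted p = 0.129). Median-ratio scaling and quantile normalization called it lower, at -0.77 and -0.76. With all samples its changes from Day 3 on lay between -0.04 and 0.12 with standard errors of 0.29, and their sign turned on the scaling. The Day 3 samples ranged from 1.53 to 9.16 FPKM, and without sample 1 the Day 3 change was 0.44 in place of 0.03, not called (limma adjusted p = 0.127). From Day 1 to Day 3 the change was 0.63 ± 0.29 with all samples and 1.04, called, without sample 1 of Day 3.

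The lysyl oxidase pool was thus rearranged. Its sum was 19.3 to 23.6 FPKM at Day 0 and 26.0 to 92.4 FPKM at Day 3. Lox made up 25.3 to 31.3% of it at Day 0 and 59.3 to 66.5% at Day 3, then a median of 38.4 to 45.9% from Day 5 on. Loxl2 went from a median of 23.2% to 7.96% at Day 1 and was at 13% at Day 28. The ratio of Loxl1 to Loxl2 was 1.96 to 2.34 at Day 0 and 4.51 to 5.79 at Day 1, and its lowest value on any later day was 2.66.

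Among the steps between neighbouring days from Day 1 on, members were called in the first 2, which also had the highest shares of all genes called. From Day 1 to Day 3, where 10.6% of all genes were called, 3 members were: Mmp19 (1.12 ± 0.23) and Lox rose and Mmp9 fell. Without sample 1 of Day 3 the changes of Mmp19 and Mmp9 were 1.31 and -0.78, and when only the 8 samples of Days 1 and 3 were fitted that of Mmp19 was no longer called (limma adjusted p = 0.0693). Without sample 1, Mmp14 (0.72), Timp1 (0.88) and Loxl2 were called higher as well. From Day 3 to Day 5 (background 5.76%) it was Lox alone. Mmp19 and Timp1 were called lower as well without sample 1 of Day 3 (-0.71 and -1.27) and, with all samples, under median-ratio scaling (-0.65 and -0.95), and Mmp19 also under quantile normalization (-0.61). No member was called from Day 5 to Day 7 (0.657%), Day 7 to Day 14 (0.634%), Day 14 to Day 21 (0.453%) or Day 21 to Day 28 (0.199%), and the background there was near 0. Between Day 3 and Day 28 (12%) Mmp19 (-1.50 ± 0.23) and Lox (-1.17 ± 0.30) were lower and Mmp2 (0.60 ± 0.19) higher at the late time point (limma adjusted p = 6.13e-06, 0.00245 and 0.0112). The Mmp2 difference lost its call without sample 1 (0.36) or sample 4 (0.56) of Day 3 and without sample 1, 2 or 4 of Day 28 (0.57, 0.58 and 0.56), under median-ratio scaling (0.46) and when only the 8 samples of the 2 days were fitted (limma adjusted p = 0.122), and the Lox difference lost its call in that fit as well (limma adjusted p = 0.0662). Timp2 gained one without sample 2 (0.62) or 3 (0.70) of Day 3 or sample 3 of Day 28 (0.63), against 0.53 with all samples. Without sample 1 of Day 3 Timp2 stood at 0.27, not called, and Mmp19 and Lox at -1.69 and -1.54. The comparisons with Day 0 share the same 4 control samples, as do steps that share a day.

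The samples of a day tended to be high or low for many members at once. Sample 2 of Day 1 was the lowest of its day for all 10 members and sample 4 the highest for 9. Sample 1 of Day 3 was the lowest for 9, sample 3 of Day 7 for 8, and sample 4 of Days 5 and 7 the highest for 9 each. Leaving out sample 2 of Day 1 moved the Day 1 rises of Timp1, Lox and Mmp19 to 3.91, 1.83 and 1.16, and leaving out sample 4 moved them to 3.23, 1.32 and 0.65, with all calls kept.

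Over the 32 samples the members fell into loose groups by Pearson's r of log2(FPKM + 1), given as a description since samples of a day share their condition. Mmp19 and Lox (r = 0.86) and Timp1 and Lox (0.83) went together, and so did Mmp14 with Loxl1 and with Mmp2 (0.84 each), Timp2 with Loxl2 (0.80) and Timp2 with Mmp2 (0.79). Mmp9 reached 0.45 at most, with Timp3. Among the 11931 genes left of those 11943 after the 10 members and 2 genes without a symbol were set aside, the genes most like Mmp14 were Otulinl, Vat1 and Lyz2 (r = 0.95 each), the last a lysozyme that is also 1 of the 8 macrophage markers. Those most like Lox were Gda (0.95), Ms4a6d (0.93) and Il4ra (0.93), the last a chain of the interleukin 4 receptor. Timp1 was nearest to Atf3, a stress-induced transcription factor, and Hsp90aa1, a chaperone (both 0.93), and to Actr2 (0.91), but by Spearman's rank these stood only 230th, 345th and 21st. Mmp9 was nearest to Nfil3 (0.88), Wbp1l and Grk5 (0.87 each), which by Spearman's rank stood 620th, 212th and 2nd, and Mmp19 to Rasa3, Lrrc59 and Pabpc1 (0.91 to 0.92). Mmp2 was nearest to Fnbp1, Pip4k2a and Ppp1r9b (0.92 to 0.93), Timp2 to Ikbip, Itm2c and Antxr1 (0.92 to 0.93) and Timp3 to Ppp2r5a, Foxk2 and Rab22a (0.81 to 0.84). Loxl1 was nearest to Syk, Myh9 and Arf3 (0.94 each), and Loxl2 to Axl, a receptor kinase, to the collagen chain Col5a1 and to Fstl1 (0.90 each).

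Other genes of the same machinery were counted from lists. Of the other MMPs, 13 of 17 could be tested, and 1 was called higher at Day 1, 3 higher and 1 lower at Day 3 and 3 higher at Day 28, beside 8.84%, 19.3% and 18.3% of all genes called on those days. The median change of the 13 was 0.10 at Days 1 and 3 and 0.39 at Day 28, beside 0.03, 0.06 and 0.14 over all genes. Mmp3, stromelysin 1, was the one called on all 7 days, with changes from 2.59 at Day 1 to 1.04 at Day 28 and mean levels of 0.73 FPKM at Day 0 and 9.82 FPKM at Day 1. Mmp17, a membrane-anchored MMP, was called from Day 3 (0.77) to Day 28 (0.91), while Mmp15, another, fell by 1.42 at Day 3 and by 0.75 at Day 21. Mmp8, the collagenase of neutrophils, was at 0.02 and 0.59 FPKM at Days 0 and 1 and was not called.

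Among other inhibitors of matrix proteases, Timp4, the fourth TIMP, rose by 0.64 at Day 1 and was called lower from Day 5 (-0.93) to Day 28 (-0.71), with means of 5.43 FPKM at Day 0 and 2.96 FPKM at Day 28. Serpine2, a serine protease inhibitor, was called lower at Days 3 (-0.79) and 28 (-0.60). Reck, a membrane-anchored MMP inhibitor, was not called on any day, and neither were A2m, Cst3 and Serpinh1.

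Of 11 other collagen-modifying enzymes, 1 was called higher at Day 1, 5 at Day 5 and 3 at Day 28, and none lower on any day, beside 8.84%, 18.8% and 18.3% of all genes. Plod2, the lysyl hydroxylase of collagen telopeptides whose product lysyl oxidases act on, was called on each day from Day 3 to Day 28, with changes from 0.80 to 1.24. Tgm2, tissue transglutaminase, rose early, by 1.02 at Day 1 and 1.19 at Day 3, and was not called later. Loxl3 was called at Day 5 only (0.71) and Loxl4 on no day.

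Of 13 ADAMTS, plasminogen and cathepsin genes, 9 were called higher at Day 3 (19.3% of all genes called) and 4 at Day 28 (18.3%), when Adamts5, an aggrecanase, was lower (-0.65). Ctsl and Ctss, lysosomal cathepsins, were at 1.86 and 2.11 at Day 28. Of 14 matrix substrates, none was called at Day 1, 21 or 28 (8.84%, 15.7% and 18.3% of all genes called), 1 was higher and 1 lower at Day 3 (19.3%) and 3 were higher at Day 5 (18.8%, so near the background), namely Col1a1 (1.09), Col3a1 (1.73) and Fn1 (1.34), a fibrillar collagen pair and fibronectin, of which Col3a1 and Fn1 were also called at Day 7 and Fn1 at Day 14. Eln, elastin, was higher at Day 3 only (1.02).

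Overlapping genes touch some members. Exons of Tmem198b on the opposite strand cover 22.3% of the merged exon length of Mmp19, and the sources used here do not say whether counting used strand. Tmem198b had means of 0.84 FPKM at Day 0 and 1.2 FPKM at Day 3, and reads from the shared part cannot be told apart without strand. Gm27177 overlaps 5.57% of Loxl2 and stayed at or below 0.0102 FPKM.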

How the data were processed

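RNA from 32 GAS muscle samples, 4 at each of 8 time points, was measured by RNA sequencing. The authors deposited FPKM values for 33397 genes, 1 column per sample, and the submitters' processing notes list CASAVA, HISAT2 2.1.0, DESeq2 and the build GRCm38 without giving their order or parameters. Which counter and which strand setting were used is not given in the sources used here. Column names give the time point and a letter or number but no sample of the labels, so columns were used as 4 samples of their group, and the 4 columns named C were taken as Day 0. No column was left unused.

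Symbols and merged exon lengths came from GENCODE M21 (33356 of 33397 genes matched). FPKM times length gave whole fragments within 0.05 for 99.3 to 99.4% of the values under 200 fragments, from which depth was recovered (14199902 to 17561584 per sample, median 16663160). Counts of fragments cover counting error only.

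Log2(FPKM + 1), with a pseudocount of 1, was fitted by limma 3.58.1 in R 4.3.3 (variance trend) over the 22071 genes that reached 0.1 FPKM in 4 samples or more. The pseudocount makes the fitted change understate that of low genes. Single members were also compared by exact two-sided permutation of the 8 samples of a pair of days. On simulated data for Day 3 against Day 0 with 22071 genes, 192 of 200 genes changed 2-fold and 87 of 200 changed 1.5-fold passed both thresholds. The changed genes were drawn from those with a mean log2(FPKM + 1) above 1, and the change was added on that scale, so recovery of lower genes was not tested. Sums, permutations and plots were made in Python 3.11.15 (matplotlib 3.10.9, scipy 1.17.1, pandas 2.3.3, numpy 2.4.6).

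The genes named are the 10 members, the genes of the lists where a list is described, and for each member the 3 genes with the highest Pearson r. The members and lists were chosen with earlier results of these data known. Alternatives covered the pseudocount, the filter, TPM, median-ratio scaling, quantile normalization, removal of mitochondrial genes, the variance model, the samples in the fit, the fold threshold, limma-voom on recovered fragments and leaving out each sample. Protein sequences of the members were not analysed here. A result on 1 gene of the list of other inhibitors is not reported here.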

Additional observations from a re-analysis of the deposited data

Results flagged for a closer look

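Among 80 groups of 4 samples (10 members on 8 days), 2 held a sample far from the other 3 by Dixon's criterion, where chance alone gives about 1 in 20 groups, or 4 of 80. Sample 3 of Day 28 had 43.8 FPKM of Mmp2 beside 55.6 to 58.0 in the others, and leaving it out moved the Mmp2 rise at Day 28 from 0.70 to 0.79, still called. The same sample was the lowest of its day for 6 of the 10 members. Sample 4 of Day 5 had 23.6 FPKM of Timp1 beside 15.4 to 16.7, and without it the Timp1 rise at Day 5 was 3.01 in place of 3.15.

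For 3 members the effects against Day 0 differed between Day 28 and Day 3 in the limma contrast of the 2 days. The difference was 0.60 for Mmp2, -1.50 for Mmp19 and -1.17 for Lox. Without sample 1 of Day 3 that of Mmp2 was 0.36 and no longer called, and those of Mmp19 and Lox were -1.69 and -1.54.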

How the results depend on the processing

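No paired analysis was possible because the table's columns do not carry the replicate numbers of the labels. Of 39 called member comparisons, none was reversed by any alternative, 20 kept their call under every one and 34 under each omission of 1 sample. All 39 were kept with TPM, voom, other pseudocounts and filters and other variance models, 36 without mitochondrial genes, 32 with only the 8 samples compared, 28 with median-ratio scaling, 28 with quantile normalization and 22 with a 2-fold threshold. Of the 101 not called, 46 changed sign in some setting and 20 became called.

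Counts of members called higher moved as follows. With a 2-fold threshold they were 3 at Days 3, 5, 7 and 14 and 2 at Day 28 against Day 0, 1 for Day 3 against Day 1 and 0 for Day 28 against Day 3. With median-ratio scaling and with quantile normalization they were 3 at Days 5 and 14 and 2 at Day 28. Median-ratio scaling gave 0 for Day 28 against Day 3, quantile normalization 1 for Day 3 against Day 1, and TPM 5 at Day 21. The 8-sample fit gave 0 for Day 3 against Day 1 and 0 for Day 28 against Day 3, and dropping the fold threshold gave 2 for Day 28 against Day 3. Leaving out 1 sample gave 1 to 5 for Day 3 against Day 1 and 0 to 2 for Day 28 against Day 3.

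Counts called lower became 1 with median-ratio scaling on all 7 days, with quantile normalization at Days 1, 3, 7, 14, 21 and 28, without a fold threshold at Days 7, 14 and 21, and in the 8-sample fit at Day 1. For Day 5 against Day 3 they were 3 with median-ratio scaling, 2 with quantile normalization, 0 in the 8-sample fit and with a 2-fold threshold, and 0 to 3 when 1 sample was left out. The 2-fold threshold gave 0 for Day 3 against Day 1, and the 8-sample fit 1 for Day 28 against Day 3. The counts fall under a 2-fold threshold because it asks for a larger change. The cause of the other differences was not tested. Timp1 at Day 0 rests on as few as 4 fragments, so its fold is imprecise.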
